A study of Rattus norvegicus with 172 samples.

Results

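The genes described here are the potassium channel genes and channel subunit genes of the rat spinal cord whose symbol starts with Kcn, Kcnj10 left out, followed after complete transection of the cord. Of 74 such genes with a named probe set on the array, 49 entered, because the mean of at least 1 group of cord arrays reached 6.55 on the log2 scale, a level that 11989 of all 14218 named genes reached. Where several probe sets named a gene, the one that averaged highest on cord arrays gave its value. In normal cord 40 of the 49 reached the level, and 9 reached it only after injury (Kcnk5, Kcnk6, Kcnj15, Kcnj3, Kcnj5, Kcnj8, Kcna5, Kcnn4 and Kcnv1).

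Potassium channels let potassium leave or enter a cell along its gradient and so set the resting potential, the shape of the action potential and the rate of firing. Voltage-gated channels are built from pore subunits of the Kv families, to which beta subunits, KChIP proteins and KCNE proteins can attach; in myelinated axons the Kv1 channels lie beside the nodes of Ranvier. Inward rectifiers (Kir) and tandem-pore channels (K2P) act near the resting potential in neurons and glia, and calcium-activated channels open as calcium rises, also in immune cells and microglia.

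The study measured RNA with Affymetrix rat genome arrays in female Wistar rats, 2 months old and weighing 250 to 300 g, in which 5 mm of the mid-thoracic cord was removed. In the lesion control arm the gap was left empty. In the tube-alone arm it received an empty chitosan tube, and in the NT-3 tube arm a chitosan tube with chitosan carriers that hold neurotrophin-3, a growth factor for neurons. The cord rostral and caudal to the gap was sampled on days 1, 3, 10, 20, 30, 60 and 90, and the tissue in the gap (the lesion segment) from day 3, in the tube-alone arm on day 3 alone. Each array of injured cord held RNA pooled from 4 animals, and most groups had 3 arrays; the tube-alone rostral group of day 10 had 2. Normal cord was the matching segment of unlesioned rats on 3 arrays, which serve as the baseline of every segment. Injured cord filled 55 groups and 164 of the 172 arrays, and besides the 3 of normal cord there were 5 of a technical reference RNA.

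Array medians lay between 7.10 and 7.25, and the number of arrays, not a depth, limits the precision. The mean of 18 neuron markers was 10.77 to 10.85 in normal cord, 9.67 to 10.57 in rostral and 9.74 to 10.56 in caudal lesion control arrays, and 6.88 to 9.35 in the lesion segment. The mean of 12 microglia and macrophage markers was 7.68 to 7.85 in normal cord and 11.01 to 11.15 in the lesion segment on day 3. Skeletal muscle markers averaged 6.04 to 6.13 in normal cord and up to 10.71 in the lesion segment of lesion control. Sensory ganglion neuron markers averaged 7.44 to 7.61 in normal cord and 6.60 to 10.27 in that segment. On day 3, replicate 1 of the lesion control lesion segment stood apart, with a neuron marker mean of 8.70 against 7.01 and 6.99. RT1-CE10 is a class I gene of the polymorphic major histocompatibility complex. It averaged 10.95 to 11.60 in the lesion control groups of day 30 and 6.71 to 7.85 in those of the other days. It also differed between arms on some days. The animals of these groups may differ in stock, which was not tested. This bears on comparisons between days, between arms and with normal cord. Only comparisons of arms were repeated on days of like RT1-CE10. In tissue arrays of this kind, fewer cells of a type and less RNA per cell cannot be told apart.

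Most members were lower after transection. Lesion control was set against normal cord in 3 spans of days with limma, each day weighted equally, and a difference is called when its Benjamini-Hochberg adjusted p over all genes tested is under 0.05. In the rostral segment 6, 6 and 5 of 46 tested members were called higher on days 1 to 3, 10 to 30 and 60 to 90, where 28.9%, 30.7% and 25.4% of all tested genes were; 32, 33 and 32 were called lower, against 30.1%, 32.4% and 32.5% of all genes. In the caudal segment 8, 7 and 5 of 46 were higher (28.0% of all genes in the middle span, 30.8% and 24.0% in the first and last), and 31, 31 and 30 were lower, against 30.4%, 29.3% and 28.8%. In the lesion segment 9, 9 and 11 of 49 were higher on day 3, days 10 to 30 and days 60 to 90, with 42.3%, 41.7% and 35.6% of all genes, and 34, 30 and 28 were lower, with 34.8%, 36.2% and 36.6%. The members' median difference in the lesion segment was -1.53, -1.07 and -0.66 log2, and in the rostral segment -0.61, -0.68 and -0.52; in the caudal segment it was -0.62, -0.56 and -0.49, while the median of all genes lay between -0.05 and 0.11. Neuron markers fell beside them, with 15 of 15 tested called lower in the lesion segment on day 3 (median -3.96) and 14 of 15 in the rostral segment on days 1 to 3 (median -0.58). Glial lists fell too. Over all days, list means in the lesion segment had a median of -2.42 log2 from normal cord for neurons, -2.25 for oligodendrocytes and central myelin and -1.63 for astrocytes. For oligodendrocyte precursors it was 0.11 and for Schwann cells 0.78. The part of these cells in the members' differences was not tested.

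Of the 46 members tested in all 9 segments and spans, 24 (52.2%) were called lower in every one, where 16.0% of the 11397 genes tested in all 9 were, and 3 (6.52%; Kcnn4, Kcnk6 and Kcne4) were called higher in every one, against 13.6%. With those 24, 33 (71.7%) were called lower in at least 1 and higher in none, against 41.7% of all genes. Called higher in at least 1 and lower in none were 8 (17.4%), against 43.0%, and 10 with Kcnj15 and Kcnj3. Of these 10, only Kcne4, Kcnk13 and Kcnh3 reached the level in normal cord. Kcnn4, Kcnk6, Kcnk5, Kcnj15, Kcnj3, Kcnj5 and Kcnj8 entered the set through injured groups. Their higher levels are thus tied to the rule that chose them and are given as a description. In the same way Kcna4 and Kcnk4, both among the 24, reached the level in normal cord alone, so their lower levels are tied to the rule. Kcna5, Kcne3, Kcnk2, Kcnmb4 and Kcnv1 were called in both directions, and Kcnk3, a background K2P channel, in neither. Kcna5 and Kcnv1 also entered through injured groups, so their higher calls are a description too. Kcnj15, Kcnj3 and Kcnv1 were tested in the lesion segment alone.

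**Figure D1:**
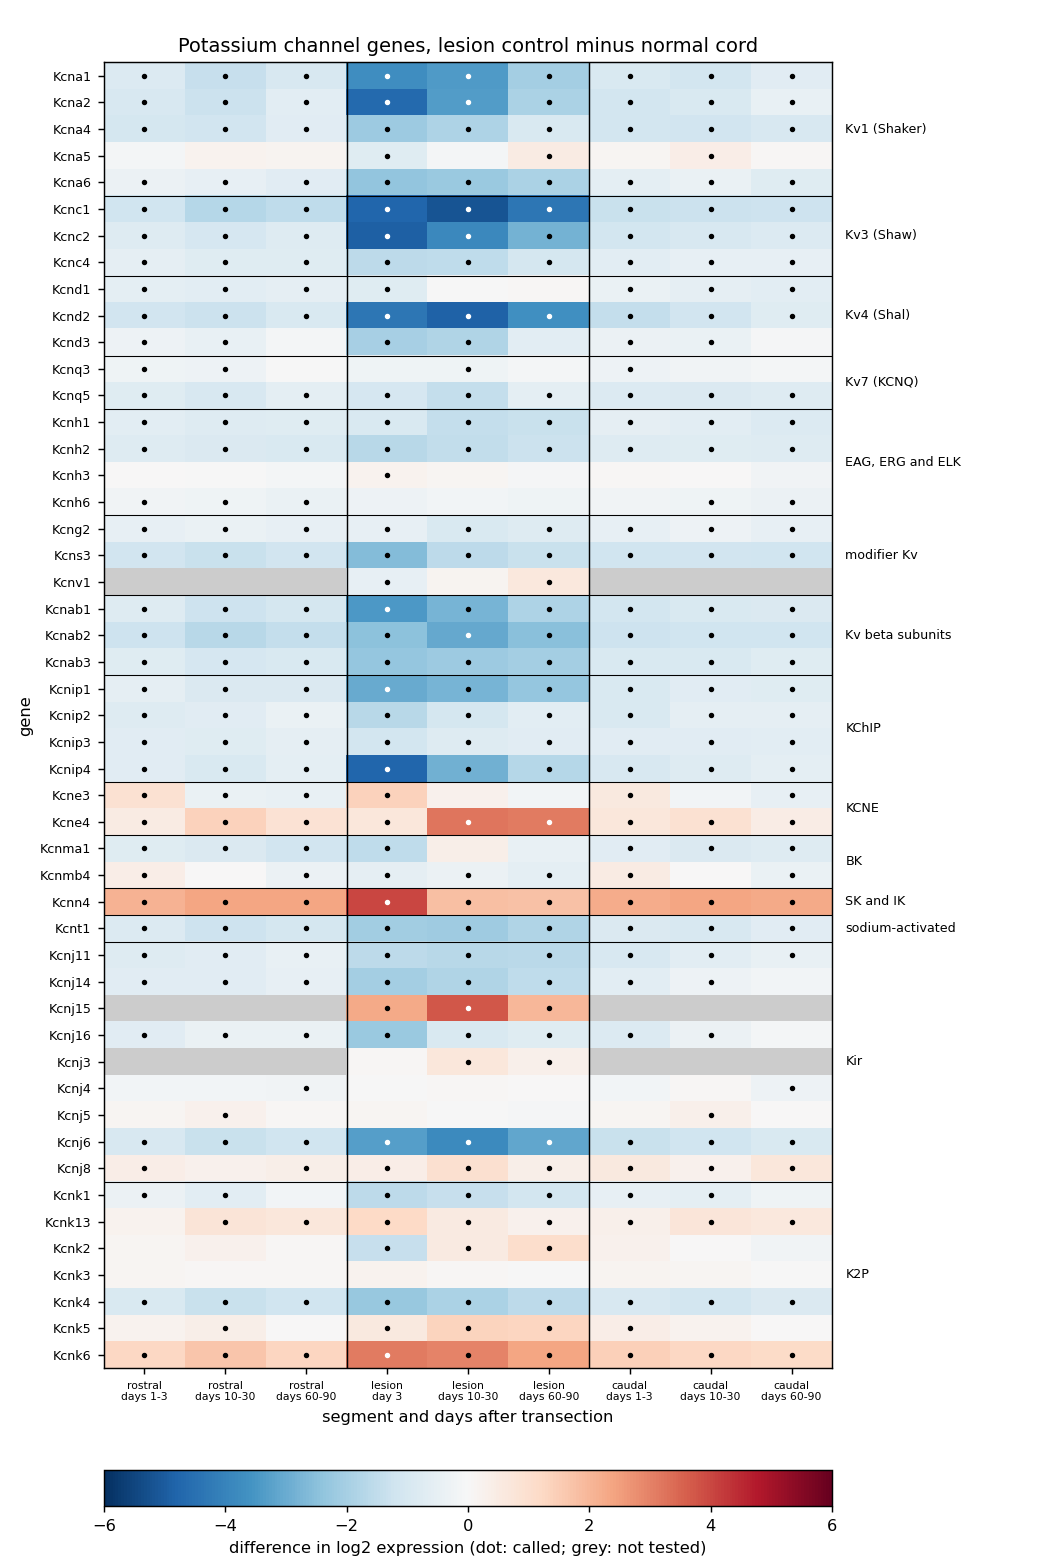
Difference of lesion control from normal cord (log2, colour) for the 49 members (vertical axis, by subfamily) in 3 segments and 3 spans of days (horizontal axis). Dots mark adjusted p under 0.05 and grey marks not tested; the lesion segment columns hold the darkest cells, from -5.20 for Kcnc1 to 4.01 for Kcnn4.

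Promoter sequence, the 250 bases before the RefSeq start site in assembly GRCr8, was matched for 36 members and not for the other 13, among them Kcnn4 and Kcnk6. It is shown for a pair that fell in all segments, Kcnc1 and Kcnj6, and for Kcne4, which rose in all, so that the base composition and motif letters can be read beside the values. Capitals mark a match to CAGCACC, the left part of the RE1 element that the neuronal repressor REST binds, searched on both strands with no letters shared with the other motifs. The windows are chr1:106038997-106039246 on the plus strand for Kcnc1, chr11:47778349-47778598 on the minus strand for Kcnj6 and chr9:87695798-87696047 on the plus strand for Kcne4.
Kcnc1: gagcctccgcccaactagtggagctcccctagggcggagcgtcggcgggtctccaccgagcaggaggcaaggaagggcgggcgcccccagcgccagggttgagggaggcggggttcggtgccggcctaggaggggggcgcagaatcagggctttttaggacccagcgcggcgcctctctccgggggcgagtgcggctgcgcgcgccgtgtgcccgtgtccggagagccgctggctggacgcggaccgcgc
Kcnj6: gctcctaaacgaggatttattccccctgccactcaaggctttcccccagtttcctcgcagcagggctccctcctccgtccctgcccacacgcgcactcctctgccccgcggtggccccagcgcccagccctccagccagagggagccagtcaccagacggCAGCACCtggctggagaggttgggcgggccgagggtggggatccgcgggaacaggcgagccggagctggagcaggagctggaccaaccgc
Kcne4: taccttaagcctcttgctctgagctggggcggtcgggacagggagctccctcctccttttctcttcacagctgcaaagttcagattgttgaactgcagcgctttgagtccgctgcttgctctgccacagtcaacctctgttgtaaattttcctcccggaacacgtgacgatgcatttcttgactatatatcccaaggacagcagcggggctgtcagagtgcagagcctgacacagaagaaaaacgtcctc

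The Kcnc1 window was 74.4% G and C, that of Kcnj6 69.2% and that of Kcne4 52.4%; the median was 62% over the 36 member windows and 51.2% over all 33469 windows of the table. CAGCACC occurred in 2 of the 36 windows, Kcnh6 and Kcnj6 (at -90), or 5.56%, against 5.43% of all windows. The PU.1 core GAGGAAGT occurred in Kcnj14 and Kcnj5 (5.56% against 2.04%), the AP-1 site TGANTCA in Kcnj16 (2.78% against 6.34%) and the cyclic AMP response element TGACGTCA in 0 of 36 (1.59% of all windows). A match describes letters only, and its absence says only that these letters are not in this window.

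The Kv3 genes, whose channels close fast and allow high firing rates, had the lowest subfamily medians in the lesion segment (-4.74, -3.86 and -2.82 log2 in the 3 spans), and all 3 were called lower in every segment and span. Kcnc1 measured 11.18, 11.76 and 11.52 in normal cord and 8.40, 5.89 and 5.96 in the lesion segment of lesion control on day 3, the first value being replicate 1. On days 10 to 30 the 9 lesion arrays had a lowest value of 4.72, a median of 6.46 and a highest of 7.17. None of these arrays reached the normal range, and Kcnc1 fell by 5.20 ± 0.38 (SE) log2 on days 10 to 30, 36.7-fold (limma adjusted p = 4.81e-14). In the rostral segment the same gene had a lowest value of 9.57, a median of 10.31 and a highest of 10.80 on days 1 to 3, below all normal arrays, a difference of -1.21. Kcnc2 measured 10.70, 10.32 and 10.55 in normal cord and 7.94, 4.71 and 4.29 in the lesion segment on day 3, with differences of -4.88, -3.86 and -2.82 over the spans there. Kcnc4 differed less, by -1.57, -1.53 and -1.04 in the lesion segment.

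Among the Kv4 genes, which carry the fast A-type current of dendrites, Kcnd2 fell most. Kcnd2 measured 10.51, 10.31 and 10.18 in normal cord and 7.69, 5.12 and 5.20 in the lesion segment on day 3; on days 10 to 30 its lowest, median and highest were 4.81, 5.50 and 6.13. No injured lesion array overlapped the normal ones in these spans, and the fall of 4.83 ± 0.30 log2 on days 10 to 30 was 28.4-fold (limma adjusted p = 1.28e-15). Kcnd3 fell by 2.01 and 1.79 log2 on day 3 and days 10 to 30, and its difference of -0.63 on days 60 to 90 was not called. Kcnd1 fell by 0.74 on day 3 in the lesion segment, where later differences of -0.02 and 0.07 were not called; in the rostral segment it was lower in all 3 spans, by 0.54 to 0.65.

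The KChIP proteins bind Kv4 channels and calcium and speed their traffic to the membrane; all 4 genes were called lower in every segment and span. Kcnip4 measured 10.57, 10.08 and 10.42 in normal cord and 7.48, 4.57 and 4.77 in the lesion segment on day 3. The groups did not overlap, and replicate 1 of the injured group lay nearest to normal cord. The difference was -4.75 ± 0.59 log2 (26.9-fold, limma adjusted p = 1.02e-08), -2.86 on days 10 to 30 and -1.72 on days 60 to 90. A second Kcnip4 probe set, at 6.78 in normal cord, gave -2.89 on day 3 but -0.38 in the rostral segment on days 10 to 30; with the mean of its probe sets Kcnip4 lost its rostral calls of days 1 to 3 (adjusted p = 0.165) and 60 to 90 (adjusted p = 0.767) and its caudal call of days 60 to 90 (adjusted p = 0.635). Kcnip1 fell by 3.03, 2.81 and 2.33 log2 in the lesion segment, Kcnip2 by 1.67, 1.07 and 0.65, and Kcnip3 by 1.09, 0.76 and 0.66.

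The Kv1 genes encode the channels that axons carry beside their nodes, and Kcna1, Kcna2, Kcna4 and Kcna6 were called lower in all 9 comparisons. Kcna2 measured 12.05, 12.01 and 12.08 in normal cord and 9.10, 6.66 and 6.38 in the lesion segment on day 3. Its lowest, median and highest there were 7.89, 8.52 and 9.52 on days 10 to 30, and 9.53, 10.20 and 10.61 on days 60 to 90. All injured lesion arrays lay below normal cord, although later spans lay nearer to it: the differences were -4.67 ± 0.39 (25.4-fold, limma adjusted p = 1.70e-12), -3.33 and -1.88 log2. Kcna1 fell by 3.73, 3.41 and 2.06 log2 in the lesion segment and by 0.84, 1.37 and 0.94 in the rostral one. Kcna4, an A-type channel, and Kcna6 fell by 2.18 and 2.39 in the lesion segment on day 3. Only normal cord brought Kcna4 into the set, so its fall is a description. Kcna5 took another course, given below with the genes that changed direction.

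Kv beta subunits are cytoplasmic partners of the Kv1 channels, and all 3 were called lower in every segment and span, with lesion medians of -2.45, -2.80 and -2.02 log2. Kcnab2 measured 10.99, 11.60 and 11.36 in normal cord and 8.98, 9.0 and 8.61 in the lesion segment on day 3, with no overlap. Its difference there was -2.45, -3.08 and -2.53 over the spans, and in the rostral segment -1.26, -1.67 and -1.43. Kcnab1 measured 11.22, 10.78 and 11.04 in normal cord and 8.51, 7.28 and 6.93 on day 3, a fall of 3.44. Kcnab3 fell by 2.34 on day 3. Other probe sets of a member were compared with the chosen one in lesion control where they reached the level in normal cord or the span. In no such pair did both differ from normal cord by 0.5 log2 or more in opposite directions. Dimmer probe sets were not compared.

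**Figure D2:**
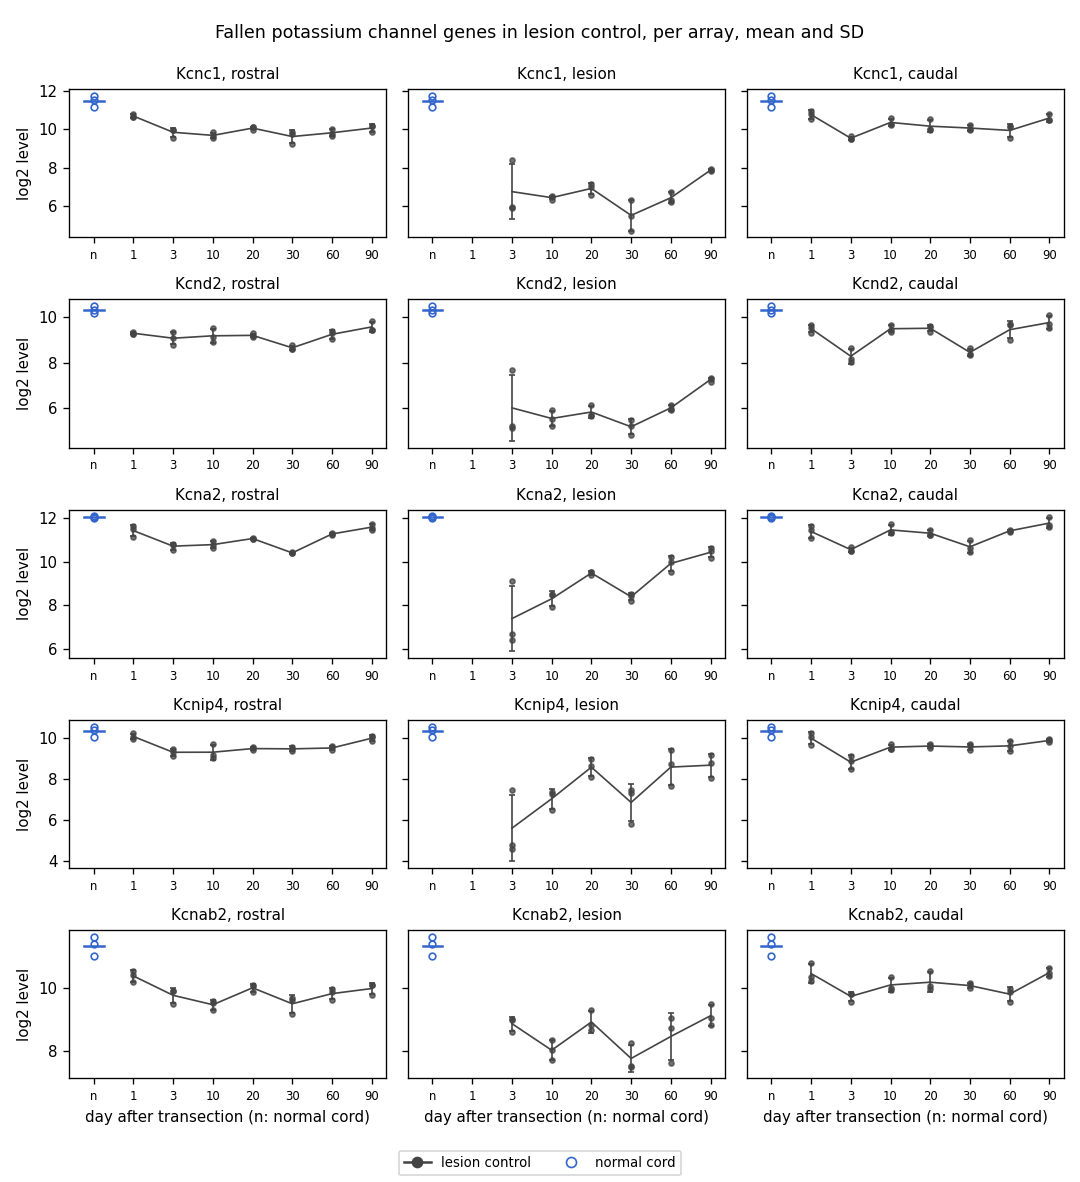
Log2 value by day for Kcnc1, Kcnd2, Kcna2, Kcnip4 and Kcnab2 in the 3 segments of lesion control. Points are arrays, lines group means, bars SD (n = 3), and blue open circles the 3 normal arrays; the lesion segment lies lowest, for Kcnd2 between 4.81 and 6.13 on days 10 to 30.

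The sodium-activated, modifier, Kv7 and EAG, ERG and ELK members were mostly lower, Kcnh3 and Kcnv1 apart. Kcnt1, a channel opened by sodium, measured 8.79, 9.37 and 8.64 in normal cord and 7.26, 6.74 and 6.49 in the lesion segment on day 3, and fell by 2.10, 2.14 and 1.82 log2 there. Kcns3, a silent subunit that modifies Kv2 channels, measured 10.32, 10.04 and 10.16 in normal cord and 7.78, 7.37 and 7.52 in the lesion segment on day 3, a fall of 2.62; its rostral differences were -1.13, -1.33 and -1.15. For both genes the normal and lesion arrays did not overlap. Kcng2, another modifier, was lower by 0.32 to 0.91 in all 9. Of the M-current family Kv7, Kcnq5 measured 8.54, 8.59 and 8.51 in normal cord and 7.44, 8.09 and 7.04 on day 3 and was lower in all 9, by 0.57 to 1.41; with the mean of its probe sets its day 3 lesion difference was not called (adjusted p = 0.149). Kcnq3 was called lower in 4 of 9, by at most 0.31. Among the EAG, ERG and ELK genes, Kcnh2, which carries a repolarizing current, measured 7.59, 8.22 and 7.84 in normal cord and 6.54, 5.94 and 6.13 on day 3, with no overlap and a fall of 1.68; Kcnh1 was lower in all 9 and Kcnh6 by at most 0.39. Kcnh3 was called higher on day 3 in the lesion segment by 0.23, a call lost when any 1 of its 6 arrays was left out (0.21 to 0.25).

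Inward rectifiers differed by gene. Kcnj6, a G protein-gated channel of neurons, measured 8.69, 8.92 and 8.84 in normal cord and 6.45, 5.13 and 4.98 in the lesion segment on day 3, then had a lowest of 4.47, a median of 4.93 and a highest of 5.60 on days 10 to 30. No array overlapped normal cord, and Kcnj6 fell by 3.30, 3.81 and 3.13 log2 over the spans there and by 0.91 to 1.34 in the stumps. Kcnj11, the pore of the ATP-sensitive channel, fell by 1.56, 1.67 and 1.61 in the lesion segment. Kcnj14 fell by 2.05, 1.80 and 1.52 there, and its caudal difference of -0.17 on days 60 to 90 was not called. Kcnj16, which pairs with the glial channel subunit left out of this set, measured 10.03, 10.25 and 9.97 in normal cord and 8.49, 7.35 and 7.76 on day 3, a fall of 2.22 that was followed by falls of 0.93 and 0.72; its second probe set gave -1.33 on day 3 and -0.16 on days 10 to 30. With the mean of its probe sets Kcnj16 was not called in the stumps on days 10 to 30 (-0.13 rostrally, -0.18 caudally) or rostrally on days 60 to 90 (-0.14). Kcnj4 was called lower in both stumps on days 60 to 90 alone, by 0.23 rostrally and 0.32 caudally. Both calls of Kcnj4 were lost without normal replicate 1 (-0.19 and -0.29) or normal replicate 2 (-0.21 and -0.31), and the rostral one also without lesion control day 60 replicate 1 (-0.15) or replicate 3 (-0.21) or day 90 replicate 1 (-0.20).

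Kcnj15, another inward rectifier, reached the level in the lesion segment alone. It measured 4.50, 4.73 and 4.22 in normal cord and 6.50, 6.61 and 7.12 in the lesion segment on day 3. On days 10 to 30 its lowest, median and highest were 6.56, 8.31 and 9.27, and on days 60 to 90 they were 5.51, 6.42 and 7.41. All these arrays lay above normal cord, and the differences of Kcnj15 were 2.26, 3.72 ± 0.23 (SE) and 1.99 log2 over a dim normal value; the gene entered the set through this segment, so they are a description. A second Kcnj15 probe set, at 5.11 in normal cord, differed by -0.05 on day 3 and 0.04 on days 10 to 30, so the higher level was seen by 1 probe set only. Kcnj8, the vascular ATP-sensitive pore, measured 6.42, 6.30 and 6.39 in normal cord and 6.78, 6.84 and 6.74 on day 3, without overlap, and differed by 0.42, 0.95 and 0.36 in the lesion segment and by 0.57, 0.25 and 0.67 caudally. Without normal replicate 2 the Kcnj8 calls were lost in the rostral and lesion segments on days 60 to 90 (0.34 and 0.33) and caudally on days 10 to 30 (0.22), the last also without normal replicate 3 (0.26). Kcnj3 was higher by 0.66 in the lesion segment on days 10 to 30 and by 0.32 on days 60 to 90, the latter call lost without normal replicate 2 (0.30), normal replicate 3 (0.31) or lesion control day 60 replicate 3 (0.28). Kcnj5 was called higher on days 10 to 30 by 0.25 rostrally and 0.30 caudally, and the rostral call was lost without normal replicate 2 (0.26), normal replicate 3 (0.20) or lesion control day 30 replicate 1 (0.21).

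Kcnn4, the intermediate-conductance calcium-activated channel known from lymphocytes, microglia and red cells, was higher than in normal cord in all segments and spans, and it entered the set through injured groups only. It measured 4.27, 4.32 and 4.33 in normal cord and 7.92, 8.56 and 8.48 in the lesion segment on day 3. In the lesion segment its lowest, median and highest were 5.42, 6.18 and 6.61 on days 10 to 30, and 5.85, 6.04 and 6.21 on days 60 to 90. The difference on day 3 was 4.01 ± 0.22 (SE) log2, over a dim normal value, and 1.81 and 1.74 followed. In the rostral segment the lowest, median and highest were 5.67, 6.26 and 7.13 on days 1 to 3 and 6.20, 6.72 and 7.05 on days 60 to 90, and the differences were 2.08, 2.37 and 2.37. Caudally they were 2.24, 2.39 and 2.29. Every lesion control array lay above all 3 normal arrays. Microglia and macrophage markers were also higher, with 11 of 12 called on day 3 in the lesion segment (median 3.40) and 10 of 12 on days 10 to 30 (median 2.08); their part in the level of Kcnn4 was not tested.

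K2P channels carry the background current, and they moved in both directions. Kcnk6 measured 5.88, 5.61 and 5.97 in normal cord and 8.74, 9.01 and 9.10 in the lesion segment on day 3; its lowest, median and highest there were 8.65, 8.74 and 9.01 on days 10 to 30. Even in the rostral segment on days 1 to 3 its lowest array, at 6.74, lay above normal cord. Kcnk6, which also entered through injured groups only, differed by 3.13 ± 0.12 (SE), 2.97 and 2.38 log2 in the lesion segment, by 1.24, 1.65 and 1.29 rostrally and by 1.42, 1.22 and 1.14 caudally, given as a description. Kcnk13 measured 6.87, 7.01 and 6.82 in normal cord and 7.85, 8.22 and 8.24 on day 3, without overlap, a rise of 1.20 followed by 0.53 and 0.26. The last was lost without any of 6 arrays (0.22 to 0.25), namely normal replicates 1 and 3, day 60 replicates 1 and 3 and day 90 replicates 2 and 3. In the stumps Kcnk13 differed by 0.20 (not called) rostrally on days 1 to 3 and rose by 0.76 and 0.70 later. Kcnk5 measured 6.09, 6.11 and 5.73 in normal cord and 6.27, 6.75 and 6.72 on day 3, and differed by 0.60, 1.33 and 1.27 in the lesion segment; its stump calls, 0.36 rostrally on days 10 to 30 and 0.42 caudally on days 1 to 3, were lost without normal replicate 3 (0.23 and 0.29). Kcnk4, a mechanically gated channel, fell in all 9, by 2.26 in the lesion segment on day 3, and Kcnk1 fell there by 1.58. Only normal cord brought Kcnk4 into the set, so its fall is a description.

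Kcne4, a small subunit that dampens Kv1 channels, rose in all 9. It measured 7.11, 7.39 and 7.34 in normal cord and 7.81, 7.96 and 8.08 in the lesion segment on day 3. On days 10 to 30 its lowest, median and highest there were 10.08, 10.42 and 10.92, and on days 60 to 90 they were 10.20, 10.38 and 10.66. The groups did not overlap, and the rises were 0.67, 3.19 ± 0.11 (9.14-fold, limma adjusted p = 4.18e-22) and 3.11 log2. In the rostral segment Kcne4 rose by 0.50, 1.37 and 0.87, and caudally by 0.70, 0.90 and 0.45; the last was not called without normal replicate 1 (0.36). Fibroblast and matrix markers rose beside Kcne4: 8 of 8 were called higher in the lesion segment in each span (medians 4.07, 4.48 and 3.98), and their mean was 8.63 to 8.87 in normal cord and 12.27 to 13.58 in the lesion segment. Of 11 endothelial and mural markers 3, 9 and 9 were called higher there (medians 0.06, 1.34 and 1.17). The part of these cells in the rise of Kcne4 was not tested.

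**Figure D3:**
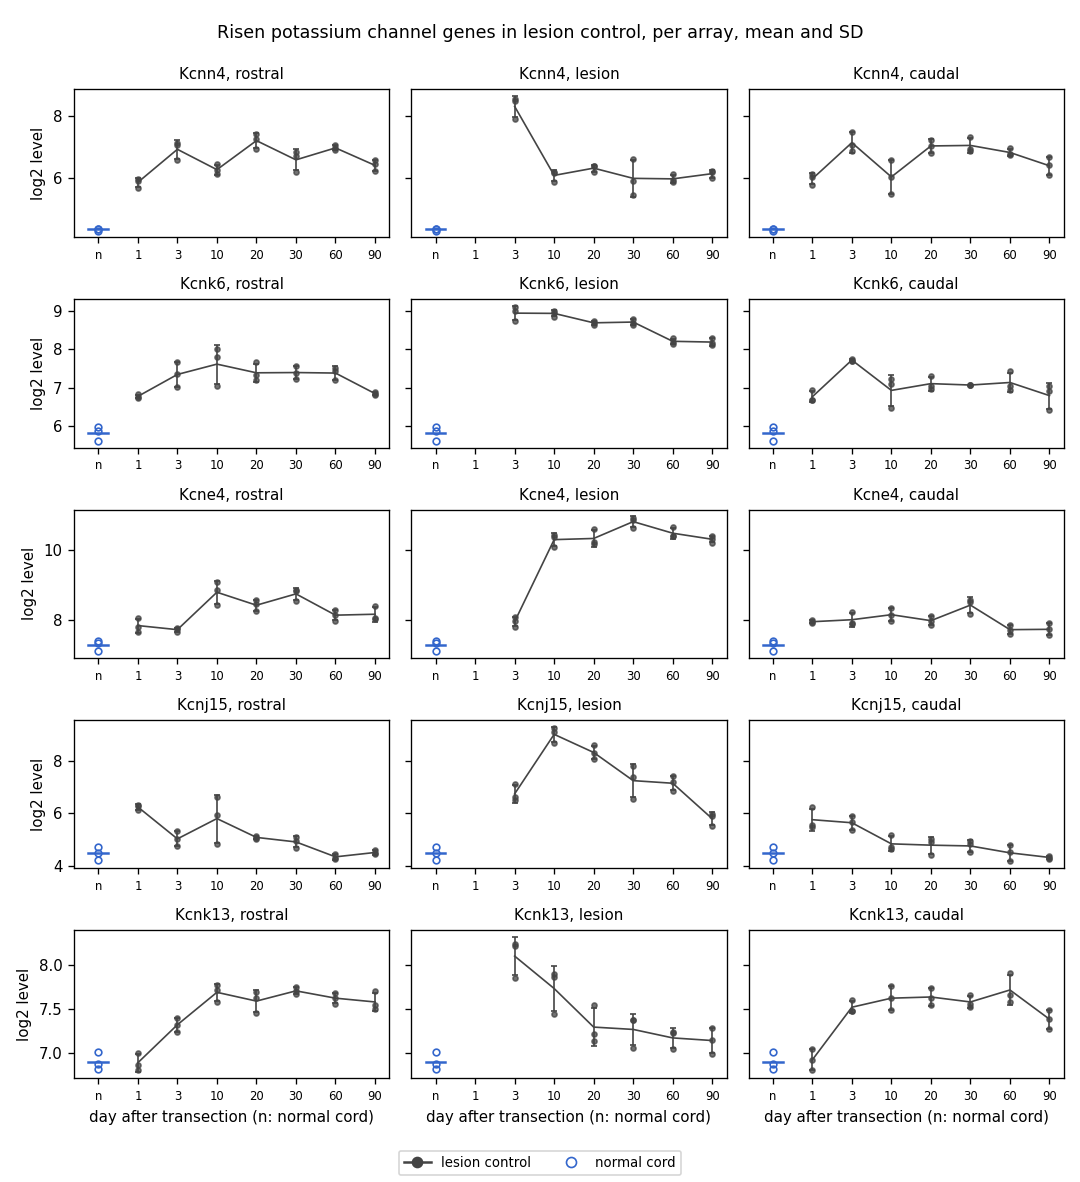
Log2 value by day for Kcnn4, Kcnk6, Kcne4, Kcnj15 and Kcnk13 in the 3 segments of lesion control; points are arrays, lines group means, bars SD (n = 3), blue open circles normal cord. Kcnn4 peaks in the lesion segment on day 3, at 7.92 to 8.56, whereas Kcne4 stands at 10.08 to 10.92 there on days 10 to 30.

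Kcne3, Kcnmb4, Kcnk2, Kcna5 and Kcnv1 were called higher in one span or segment and lower in another. Kcne3, a subunit that holds some Kv channels open, measured 7.27, 7.46 and 7.64 in normal cord and 8.59, 8.79 and 9.06 in the lesion segment on day 3, a rise of 1.36 with no overlap. Its rostral lowest, median and highest were 7.41, 8.48 and 8.82 on days 1 to 3 and 6.75, 7.0 and 7.27 on days 60 to 90. It rose by 0.90 rostrally and 0.60 caudally on days 1 to 3, and the differences on days 60 to 90 were -0.44 and -0.48. Without normal replicate 3 the later rostral differences of Kcne3 were not called (-0.31 on days 10 to 30 and -0.35 on days 60 to 90). Kcnmb4, the beta subunit of neuronal BK channels, rose by 0.42 rostrally and 0.51 caudally on days 1 to 3 and fell by 0.36 and 0.42 on days 60 to 90. Its normal arrays were 8.23, 8.49 and 8.41, and the caudal arrays had a lowest of 8.46, a median of 8.98 and a highest of 9.17 on days 1 to 3, overlapping normal cord at the low end, then 7.79, 7.98 and 8.09 on days 60 to 90, all below it. In the lesion segment Kcnmb4 was lower throughout (-0.54, -0.34 and -0.58).

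Kcnk2, a K2P channel opened by stretch and lipids, measured 7.77, 7.80 and 7.79 in normal cord and 6.95, 6.04 and 6.17 in the lesion segment on day 3. Its lowest, median and highest there were 8.14, 8.31 and 8.57 on days 10 to 30 and 8.53, 8.86 and 9.16 on days 60 to 90. The arrays thus lay below normal cord on day 3 and above it later, with differences of -1.40, 0.53 and 1.06 log2, and in the stumps Kcnk2 was not called. Kcna5 measured 6.11, 6.35 and 6.09 in normal cord and 5.54, 5.43 and 5.32 on day 3, a fall of 0.75, and was higher by 0.47 in the lesion segment on days 60 to 90 and by 0.41 caudally on days 10 to 30. Kcnv1, a silent subunit, measured 5.99, 5.99 and 5.59 in normal cord and 5.35, 5.43 and 5.31 on day 3. It was called lower by 0.49 then and higher by 0.61 on days 60 to 90. Since Kcna5 and Kcnv1 entered the set through injured groups, their rises are a description. For Kcnv1 that group was the lesion segment of lesion control on day 60 alone. The day 3 call of Kcnv1 was lost without normal replicate 1 or without normal replicate 2 (-0.43 in both). Kcnma1, the BK pore, measured 8.77, 8.92 and 8.80 in normal cord and 7.56, 7.23 and 7.11 on day 3, a fall of 1.53. Its 9 lesion arrays of days 10 to 30 ran from 8.10 over a median of 9.01 to 10.56 and overlapped normal cord. Kcnma1 was called lower in 7 of 9 comparisons and higher in none. Its stump means on days 1 to 3 and 60 to 90 were 8.12 and 7.68 rostrally and 8.16 and 8.05 caudally.

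**Figure D4:**
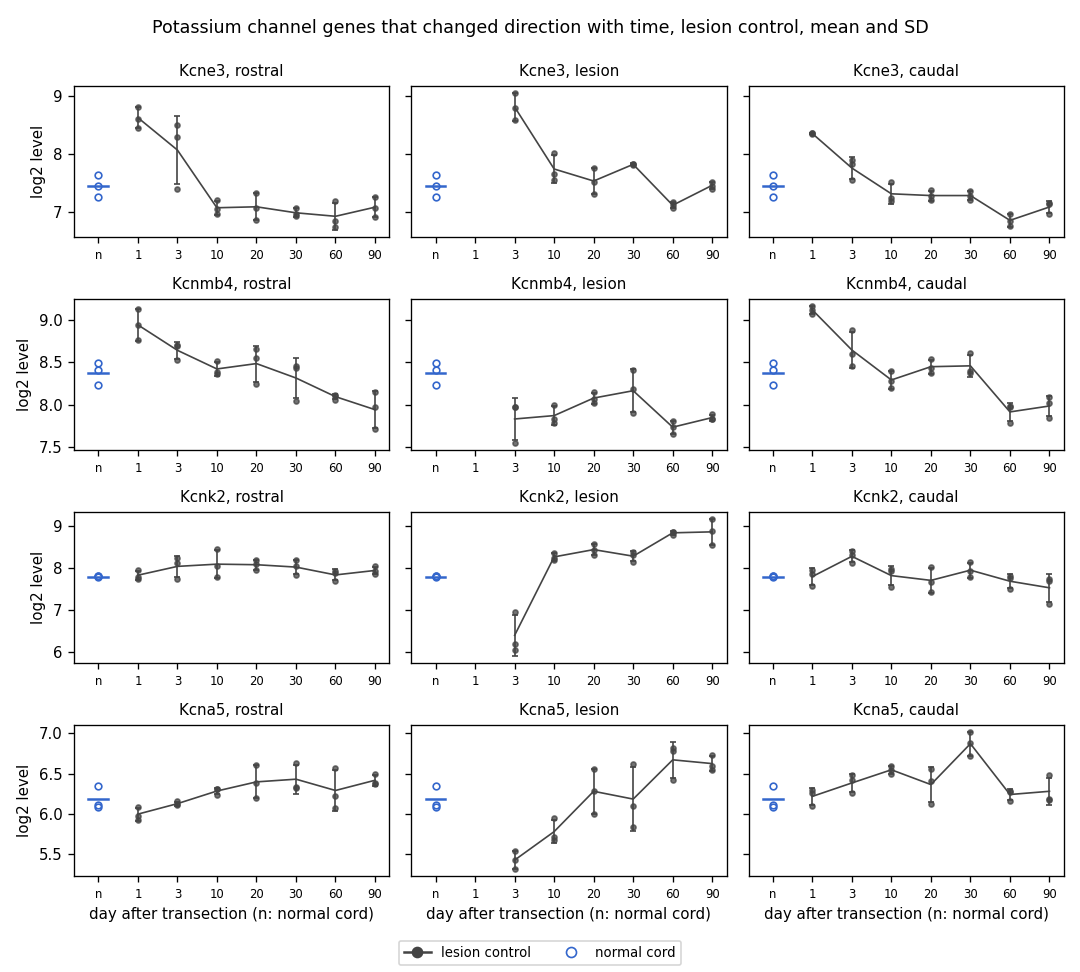
Log2 value by day for Kcne3, Kcnmb4, Kcnk2 and Kcna5 in lesion control, by segment, with arrays as points, means as lines, SD as bars (n = 3) and normal cord as blue open circles. Kcne3 is above normal cord early and Kcnk2 in the lesion segment passes from 6.04 to 6.95 on day 3 to 8.53 to 9.16 on days 60 to 90.

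Without replicate 1 of the day 3 lesion group, 42 rather than 43 members were called on day 3, and the differences were -6.02 for Kcnc2, -5.69 for Kcnip4, -5.56 for Kcnc1, -5.53 for Kcna2, -5.17 for Kcnd2 and 4.21 for Kcnn4. Of 347 called differences from normal cord in the lesion control arm, 32 lost the call when 1 array was left out.

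Late against early arrays of lesion control were compared within each segment. Rostrally 11 of 46 members were higher on days 60 to 90 than on days 1 to 3, with 19.6% of all genes, and 8 were lower, with 29.8%. Caudally 10 were higher (21.3% of all genes) and 7 lower (28.5%). In the lesion segment, days 60 to 90 against day 3, 24 of 49 were higher against 29.3% of all genes, and 8 were lower against 37.9%. Kcnip4 was higher by 3.03 ± 0.51 log2, Kcna2 by 2.79 ± 0.34, Kcnk2 by 2.46 ± 0.15 and Kcne4 by 2.44 ± 0.12, with limma adjusted p from 4.30e-06 to 1.07e-17. Kcne3 was lower by 1.52 ± 0.15 and Kcnn4 by 2.28 ± 0.19. In the stumps Kcne3 led the falls, at -1.34 rostrally and -1.08 caudally, and Kcnj16 and Kcnd2 led the caudal rises, each at 0.72. The neuron marker mean of the lesion segment moved alongside, from 6.99 to 8.70 on day 3 to 8.11 to 9.35 on days 60 to 90. Neither its part in these differences nor that of sensory ganglion neurons was tested.

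The stumps differed little from each other. Rostral against caudal on days 1 to 3, limma called 0 of 49 members in either direction, where 0.00834% of all genes were called higher and 0.0167% lower; at an unadjusted p under 0.05 it counted 4 higher and 1 lower. On days 10 to 30, 2 members were higher rostrally (4.45% of all genes) and 5 lower (2.53%), led by Kcne4 at 0.47, Kcnab2 at -0.46, Kcnk6 at 0.43 and Kcnj14 at -0.41. On days 60 to 90, 1 was higher (1.35%) and 2 lower (0.993%), namely Kcne4 at 0.42, Kcnt1 at -0.39 and Kcnj14 at -0.32. The Kcnt1 call of that span was lost without any of 8 rostral or caudal arrays (-0.33 to -0.41) and that of Kcne4 without any of 4 (0.36 to 0.39), so counts ranged from 0 to 3 with 1 array left out; with array weights 24 members were called on days 10 to 30 and 8 on days 60 to 90.

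The lesion segment stood apart from both stumps. Against their mean, 5 members were higher and 29 of 49 lower on day 3 (38.4% and 31.1% of all genes), 10 and 32 on days 10 to 30 (42.6% and 36.9%), and 11 and 26 on days 60 to 90 (36.4% and 35.8%). On day 3 Kcnc2 (-3.55), Kcnip4 (-3.47), Kcna2 (-3.25) and Kcnc1 (-2.94) differed most. On days 10 to 30 these were Kcnc1 (-3.71 ± 0.15), Kcnd2 (-3.58), Kcnj15 (3.17) and Kcnc2 (-2.87), and on days 60 to 90 Kcnc1 (-2.96), Kcnd2 (-2.89), Kcne4 (2.45) and Kcnj6 (-2.08). Kcnj15 reached the level in the lesion segment alone, so its value is tied to the rule that chose it and is a description. That value also rests on 1 probe set. Kcnn4 was higher in the lesion segment on day 3, by 1.29 ± 0.19, and lower than in the stumps afterwards, by 0.57 and 0.60.

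The arms were then compared over all days that both have, and the comparisons of one arm share its arrays. In the lesion segment 9 of 49 members were higher and 23 lower with the NT-3 tube than in lesion control, where 23.0% and 19.0% of all genes were; the members' median was -0.20 log2 and that of all genes 0.01. Kcnn4 had a lowest of 6.76, a median of 7.87 and a highest of 8.99 on 18 NT-3 tube arrays and 5.42, 6.18 and 8.56 on 18 lesion control arrays. The ranges overlapped, because on day 3 the arms were near each other (means 7.99 ± 0.27 and 8.32 ± 0.35, SD, n = 3). On each later day the NT-3 tube mean was higher, as on day 20 (8.64 ± 0.36 against 6.31 ± 0.11) and day 60 (7.88 ± 0.39 against 5.96 ± 0.14). The difference over days was 1.35 ± 0.09 log2 (2.56-fold, limma adjusted p = 2.77e-13).

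Kcnj15 averaged 8.22 against 7.38, a difference of 0.84 ± 0.12, and was higher with the NT-3 tube on 5 of 6 days. On day 10 it was lower (7.50 ± 0.36 against 9.02 ± 0.30), and on day 90 the values were 8.12 ± 0.64 and 5.79 ± 0.25. These Kcnj15 values come from the probe set that read above normal cord in lesion control, not from the second one. Kcnk2 averaged 8.76 against 8.17 (0.59 ± 0.07), with a lowest of 7.65, a median of 8.60 and a highest of 10.02 against 6.04, 8.36 and 9.16. Kcnj16 averaged 9.52 against 9.01 (0.51 ± 0.09). Kcnk6 was higher on 6 of 6 days, by 0.40 over all. The ranges of the arms overlapped for each of these genes.

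Of the 23 members that were lower with the NT-3 tube, Kcnip4, Kcnc2 and Kcnab1 had the largest differences. Kcnip4 averaged 6.26 against 7.56, a difference of -1.31 ± 0.24 (2.47-fold, limma adjusted p = 4.95e-05), and was lower on 5 of 6 days, on day 20 at 5.24 ± 0.59 against 8.59 ± 0.44. On day 3 the order was the other way, at 7.30 ± 0.84 against 5.61 ± 1.63. Kcnc2 averaged 5.56 against 6.84 (-1.28 ± 0.21), with a lowest of 4.49, a median of 5.42 and a highest of 6.78 against 4.29, 7.28 and 7.94. Kcnab1 averaged 7.38 against 8.42 (-1.04 ± 0.15), and Kcnma1 7.70 against 8.60 (-0.91 ± 0.10), lower on 6 of 6 days and on day 30 at 8.63 ± 0.16 against 10.11 ± 0.46. Kcnc1 differed by -0.92, Kcnip1 by -0.89, Kcna4 and Kcnd3 by -0.81 and Kcna2 by -0.64. Kcna4 reached the level in normal cord alone, so its arm differences, here and in the stumps, lie between group means below the level.

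Several marker lists moved with the arms in the lesion segment. Muscle markers were lower with the NT-3 tube for 9 of 10 (median -2.72; list means 5.17 to 9.70 against 6.33 to 10.71), neuron markers for 12 of 15 (median -0.97) and sensory ganglion markers for 7 of 7 (-1.04), and T and B cell markers were higher for 7 of 7 (0.61). For microglia and macrophages the median list mean was 10.58 with the NT-3 tube and 10.06 in lesion control. It was 9.44 against 10.17 for oligodendrocytes and central myelin and 8.98 against 9.45 for Schwann cells. For astrocytes it was 9.52 against 9.70, for endothelium and mural cells 8.88 against 9.24 and for fibroblasts and matrix 13.21 against 12.96. RT1-CE10 differed between the arms by over 1 log2 in this segment on days 3, 20 and 90. On the other 3 days alone, 21 members were called, with Kcnn4 at 1.74 ± 0.13 (limma adjusted p = 6.19e-12), Kcnip4 at -1.30, Kcnc2 at -1.18 and Kcnab1 at -1.0. The part of the markers in these differences was not tested.

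**Figure D5:**
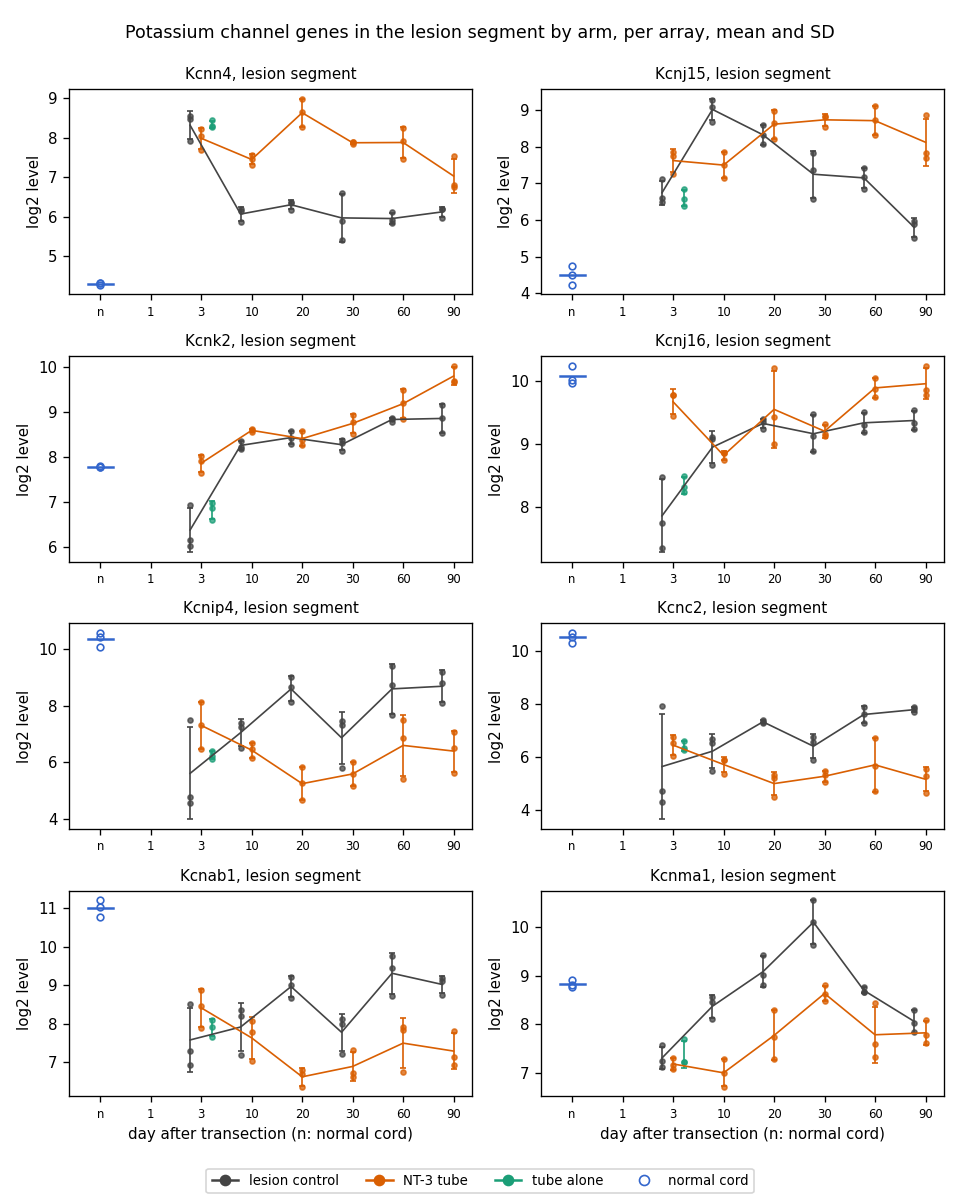
Log2 value in the lesion segment by day and arm for Kcnn4, Kcnj15, Kcnk2, Kcnj16, Kcnip4, Kcnc2, Kcnab1 and Kcnma1; points are arrays, lines group means, bars SD (n = 3), blue open circles normal cord, and tube alone has day 3 only. From day 10 the Kcnn4 means of the NT-3 tube stay above those of lesion control, as on day 20 at 8.64 against 6.31.

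On day 3 the tube-alone arm could be set beside both. Against lesion control 2 members were higher and 1 lower in the lesion segment (1.88% and 5.22% of all genes): Kcnq3 by 0.74, Kcnh1 by 0.54 and Kcnj8 by -0.55. Kcnq3 measured 7.37, 7.64 and 7.76 with the tube and 6.70, 6.79 and 7.06 without, so the groups did not overlap. This count ran from 0 to 11 with 1 replicate number left out. Against tube alone, 8 members were higher and 7 lower with the NT-3 tube (16.0% and 7.47% of all genes). Kcnj16 measured 9.45, 9.79 and 9.79 with the NT-3 tube and 8.24, 8.32 and 8.50 with the tube alone, a difference of 1.32 ± 0.22 (2.50-fold, limma adjusted p = 6.69e-05) with no overlap. Kcnk2 measured 7.65, 8.02 and 7.92 against 6.60, 6.88 and 6.99 (1.04 ± 0.17), also without overlap. Kcnd1 and Kcnj15 differed by 1.02, and Kcnq3 was lower by 0.86 and Kcnk13 by 0.69. The Kcnj15 value again comes from 1 probe set. RT1-CE10 differed by 1.28 log2 here, and its part was not tested.

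In the rostral stump the tube-alone arm differed most. Against lesion control 4 of 46 members were higher and 28 lower (12.2% and 18.3% of all genes), with a median of -0.16. Kcnd2 had a lowest of 8.16, a median of 8.73 and a highest of 9.34 on 20 tube-alone arrays and 8.60, 9.26 and 9.85 on 21 lesion control arrays. The arms overlapped, and Kcnd2 and Kcnj6 were each lower by 0.41, Kcnab1 by 0.40 and Kcna4 by 0.38; Kcnj6, Kcnab1 and Kcna4 were lower on 7 of 7 days and Kcnd2 on 5. Kcnk6 (0.30), Kcne4 (0.29), Kcnk5 (0.28) and Kcnj4 (0.11) were higher. On days of like RT1-CE10 alone, 20 members were called in place of 32. Neuron markers were lower with the tube alone for 15 of 15 (median -0.30). Over all days their list means overlapped, at 9.47 to 10.26 against 9.67 to 10.57. On days 60 to 90 they were 9.47 to 9.86 against 9.89 to 10.30. Fibroblast and matrix markers were higher for 7 of 8 (median 0.61), with median list means over all days of 11.96 against 11.46. The part of both lists in these differences was not tested. With the NT-3 tube against tube alone 21 were higher and 3 lower (15.6% and 7.54%), led by Kcne4 at -0.38, Kcnc1 at 0.34, Kcnab2 at 0.32 and Kcnab1 at 0.30; neuron markers were higher for 13 of 15 and fibroblast and matrix markers lower for 8 of 8. Since these comparisons share the tube-alone arrays, one is no independent support for the other. Muscle transcripts stood over 1 log2 above normal cord on 6 rostral tube-alone and 2 rostral NT-3 tube arrays; without them 12 members, not 24, were called between the tube arms. Only 3 were called on days of like RT1-CE10, and 13 to 18 with 1 replicate number left out, 13 without number 1.

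Differences between arms elsewhere were few and small, and the group means of Kcna4 lay below the level in all arms. With the NT-3 tube against lesion control rostrally, 0 members were higher (1.77% of all genes; 2 at an unadjusted p under 0.05 with limma) and 2 lower (1.27%), Kcnd2 by 0.30 and Kcna4 by 0.20, and none kept its call when any replicate number was left out. Caudally 0 were higher (3.95%; 1 unadjusted with limma) and 8 lower (6.25%), led by Kcnab2 at -0.27, Kcnc1 at -0.24, Kcnma1 at -0.23 and Kcna2 at -0.21, and 0 to 3 were called with 1 number left out. Caudal tube alone differed from lesion control in Kcnk2 (0.21 higher; 3.66% of all genes) and Kcnj14 (lower by 0.12; 4.99%), with no call left when a number was left out. NT-3 tube against tube alone caudally gave 0 higher (1.96%; 1 unadjusted with limma) and Kcnma1 lower by 0.24 (1.97%), with 0 to 1 called when a number was left out.

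Genes that anchor, escort or accompany these channels were listed with the set; 37 of 44 were on the array. Against normal cord, 4, 9 and 8 of 34 tested were higher and 26, 23 and 23 lower in the lesion segment of lesion control over the 3 spans, with medians of -2.15, -1.62 and -1.30 log2; of all genes 42.3%, 41.7% and 35.6% were higher and 34.8%, 36.2% and 36.6% lower there. In the rostral segment 5, 7 and 9 of 35 were higher and 22, 23 and 20 lower, and caudally 5, 6 and 6 higher and 22, 22 and 19 lower, where 24.0% to 30.8% of all genes were higher and 28.8% to 32.5% lower in the stumps. Of the 13 genes that hold Kv1 channels at the axon, 13, 12 and 12 were lower in the lesion segment. Adam22, which binds the Kv1 complex, fell by 5.10 log2 there on day 3 and Cntnap2, the juxtaparanodal anchor, differed by -4.55. Dpp6, a Kv4 partner, fell by 4.29, and the differences of Slc12a5, the neuronal potassium-chloride exporter, were -4.31, -4.88 and -3.77. Fxyd5, a regulator of the sodium-potassium pump, rose by 3.52, 3.67 and 3.45, and Slc12a7, another potassium-chloride cotransporter, by 2.22, 3.00 and 3.23. Abcc9, the sulfonylurea receptor that joins Kcnj8 in vessels, differed by 0.16 on day 3 (not called) and rose by 1.84 and 1.44 later. With the NT-3 tube, 12 of the 13 axonal anchoring genes were lower than in lesion control in the lesion segment, where 19.0% of all genes and 12 of 15 neuron markers (median -0.97) were lower; the part of neuron number was not tested.

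The 25 Kcn genes that did not reach the level were Kcnn1 (highest group mean 6.53), Kcnk12 (6.38), Kcns1 (6.07), Kcnk10, Kcnj13, Kcne2, Kcnj12, Kcnn3, Kcnh4, Kcnh8, Kcnk9, Kcna3, Kcnq1, Kcnv2, Kcnmb1, Kcne1, Kcnj2, Kcnk15, Kcnh7, Kcnb2, Kcnh5, Kcng3, Kcns2, Kcnj9 and Kcnj1 (3.63). Just inside the level stood Kcnv1 (6.57), Kcnj3 (6.62) and Kcnh6 (6.62). The median within-group SD of the members was 0.139 in the rostral, 0.192 in the lesion and 0.142 in the caudal segment, and 0.147 in normal cord.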

How the data were processed

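The authors deposited log2 expression values per probe set, made with Affymetrix Expression Console and RMA per the submitters' processing notes; the sources used here give no versions of them. Probe sets were named from the platform annotation: 20832 of 31099 had 1 symbol, 436 had several and were not used, and 9831 were not listed. Of several probe sets for a gene, the one averaging highest on the 167 cord arrays was used. Genes whose mean reached 6.55 (the 40th percentile) in at least 1 group of a fit were tested with limma 3.58.1 in R 4.3.3 (lmFit, eBayes, Benjamini-Hochberg over all genes tested), each segment apart with normal cord, and all cord arrays for contrasts between segments. Groups came from the labels. Each array is a pool, so p-values measure the spread between pools, and nothing states that pools of 1 group are independent. The members and lists were chosen with earlier results of these data known. Values by array are given for the member with the largest difference of each subfamily, for those that rose or changed direction, and for the 4 largest in each other comparison. The fits were tested on simulated data. Alternatives covered the level filter, probe set choice, normalization, trend, weights, replicate number, days of like RT1-CE10 and single arrays left out.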

Additional observations from a re-analysis of the deposited data

Results flagged for a closer look

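Differences between the segments of lesion control were tested directly with limma. Rostral minus caudal on days 10 to 30, Kcne4 differed by 0.47, Kcnab2 by -0.46, Kcnk6 by 0.43 and Kcnj14 by -0.41 log2. On days 60 to 90 Kcne4 differed by 0.42, Kcnt1 by -0.39 and Kcnj14 by -0.32. The lesion segment minus the mean of both stumps gave -3.55 for Kcnc2, -3.47 for Kcnip4, -3.25 for Kcna2 and -2.94 for Kcnc1 on day 3. It gave -3.71 for Kcnc1, -3.58 for Kcnd2, 3.17 for Kcnj15 and -2.87 for Kcnc2 on days 10 to 30. On days 60 to 90 it gave -2.96 for Kcnc1, -2.89 for Kcnd2, 2.45 for Kcne4 and -2.08 for Kcnj6. Kcnj15 reached the level in the lesion segment alone, so its value is tied to the rule that chose it.

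Differences between late and early days within a segment of lesion control were also tested directly. Days 60 to 90 minus days 1 to 3, rostral values were -1.34 for Kcne3, -0.77 for Kcnmb4, 0.50 for Kcnk13, -0.44 for Kcnma1 and 0.29 for Kcna5. Caudal values were -1.08 for Kcne3, -0.93 for Kcnmb4, 0.72 for Kcnj16, 0.72 for Kcnd2 and -0.43 for Kcnk2. In the lesion segment, against day 3, values were 3.03 for Kcnip4, 2.79 for Kcna2, 2.46 for Kcnk2, 2.44 for Kcne4, -1.52 for Kcne3, 1.22 for Kcna5 and 1.11 for Kcnv1. Kcnv1 reached the level only in this segment on day 60, so its value is tied to the rule that chose it.

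The 5 arrays of reference RNA enter no comparison. Among the 21 members at or above the level there, 1 array lay apart from the other 4 for Kcnmb4, at 8.15, and 1 for Kcnk3, at 7.55; by chance about 1 in 20 such sets is flagged. Kcnk6 averaged 8.00 and Kcnn4 7.81 in the reference RNA, above normal cord.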

How the results depend on the processing

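The alternatives followed 470 named differences, namely every call of lesion control against normal cord and the 4 largest calls in each other comparison. Among these, no direction was reversed under any alternative in which the member was still tested. Other differences given above were not followed member by member. Of the 470, 61 lost their call under at least 1 alternative other than the 2-fold rule, 51 of them when an array or replicate number was left out. With the mean of all probe sets, 385 kept the call and 13 lost it. The others were not tested there, since the mean lay below the level, and count as neither lost nor reversed. With a change of at least 2-fold required as well, 232 of the 470 lost the call. Counts of members called under that rule, by span, were 7, 15 and 10 (rostral) and 11, 10 and 5 (caudal) for lesion control against normal cord, 19, 14 and 7 and 10, 17 and 11 for the NT-3 tube, and 15, 20 and 19 and 13, 11 and 13 for tube alone. NT-3 tube against lesion control gave 0 rostrally, 4 in the lesion segment and 0 caudally, tube alone against lesion control 0 in all 3, and NT-3 tube against tube alone 0, 5 and 0. Rostral against caudal gave 0 on days 10 to 30 and 0 on days 60 to 90, lesion against stumps 18, 21 and 18, and late against early 1 rostrally, 1 caudally and 17 in the lesion segment.

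The weak arm and stump comparisons depended on the setting, and the cause was not tested. With array weights, NT-3 tube against lesion control gave 5 rostrally and 17 caudally, tube alone against lesion control 15 in the lesion segment and 10 caudally, NT-3 tube against tube alone 7 caudally, and rostral against caudal 24 on days 10 to 30 and 8 on days 60 to 90. The mean of all probe sets gave 4 for NT-3 tube against lesion control caudally, and 15 rostrally and 0 caudally for NT-3 tube against tube alone. Without the filter on dim genes, NT-3 tube against lesion control rostrally and tube alone against lesion control caudally gave 1 each. A second quantile normalization gave 1 for the latter. Days of like RT1-CE10 gave 1, 21 and 1 for NT-3 tube against lesion control (rostral, lesion, caudal), 20 for tube alone against lesion control rostrally, and 3 rostrally and 4 caudally for NT-3 tube against tube alone. Fits of the compared groups alone gave 1 for NT-3 tube against lesion control rostrally, 0 in the lesion segment and 4 caudally for tube alone against lesion control, and 11 for rostral against caudal on days 10 to 30. Without stump arrays that carry muscle transcripts, an alternative chosen after seeing the data, the counts were 1 for NT-3 tube against lesion control rostrally, 1 for tube alone caudally and 12 for NT-3 tube against tube alone rostrally. With 1 replicate number or array left out, NT-3 tube against lesion control gave 0 to 0 rostrally and 0 to 3 caudally, tube alone against lesion control 0 to 11 in the lesion segment and 0 to 0 caudally, NT-3 tube against tube alone 13 to 18 rostrally, 6 to 16 in the lesion segment and 0 to 1 caudally, and rostral against caudal 3 to 8 on days 10 to 30 and 0 to 3 on days 60 to 90.

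With the replicate number as a block, counts changed by -2 to 2 (45 instead of 43 on day 3 in the lesion segment) and 0 named calls were lost. This block gives a number the same effect in all groups of a fit. It does not model animals shared between segments of an arm and day, so it cannot decide whether such sharing matters. The numbers were not taken to pair the arrays, since not every pair correlated: deviations of same-numbered rostral and caudal arrays had a median correlation of 0.113, with 32 of 62 pairs above 0.1, against -0.012 for different numbers, so some sharing is possible. With 3 normal arrays as the only baseline, a single one could end small calls, and dim members lie near the array's floor, which limits what a fall toward it, or a fold over such a baseline, can show.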
